A study of Mus musculus with 24 samples.

Results

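The S100 genes encode small calcium-binding proteins with paired EF-hand motifs, and 9 of them (S100a1, S100a4, S100a6, S100a8, S100a9, S100a10, S100a11, S100a13 and S100a16) were followed here by symbol in a count table of 46477 mouse gene symbols. All 9 members were among the 14325 genes that passed the low-count filter. The study asked how 70% hepatectomy changes the transcripts of granulocytic myeloid-derived suppressor cells (G-MDSCs) in the liver. Wild-type male BALB/C mice aged 8 weeks underwent either removal of 70% of the liver or a sham operation limited to opening the abdomen, and livers were taken on postoperative day (POD) 1, 2, 3 or 4. Cells bearing CD11b and Ly6G were enriched with magnetic beads from digested non-parenchymal liver cells, and poly-A RNA was sequenced. Each operation and day gave 3 libraries, 24 in all, with 10390216 to 16949088 counts each. The labels do not say whether a library came from 1 mouse or from pooled mice, so p-values measure the spread between these libraries.

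Most S100 proteins sit in the cytosol as dimers, open on binding calcium and grip partner proteins such as annexins, and several are also released as alarm signals at sites of injury. S100a8 and S100a9 form calprotectin, the most abundant cytosolic protein complex of neutrophils, which binds TLR4 and RAGE once outside the cell. The remaining members are made by many cell types, endothelial cells and macrophages included.

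The libraries were not equally rich in the labelled cells, and S100 values have to be read beside that. A score for liver sinusoidal endothelium, the mean log2(CPM + 1) of 19 marker genes, left its widest gap between 9 libraries at or below 8.39 and 15 libraries at or above 9.87. Among the 9 low libraries were the 3 hepatectomy libraries of POD1 and replicate 1 of hepatectomy on POD3 and on POD4, and, of the sham libraries, POD1 replicates 1 and 2 together with POD4 replicates 2 and 3. The neutrophil markers Ly6g and Csf3r had medians of 228 and 9189 CPM in those 9 libraries, against 42.6 and 2624 CPM in the other 15. The endothelial receptor genes Stab2 and Kdr ran the other way, with medians of 110 and 111 CPM, against 2232 and 2477 CPM in the other 15. No marker of the neutrophil, endothelial or monocyte list was at 0 in any group, and in sorted bulk RNA fewer cells of a type and less RNA per cell cannot be told apart.

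All 9 genes lie on mouse chromosome 3 (GENCODE annotation, GRCm38). Of the loci, 7 fall within chr3:90511034-90695721, in the order S100a1, S100a13, S100a16, S100a4, S100a6, S100a8 and S100a9, and S100a11 (chr3:93520488-93526287) and S100a10 (chr3:93555080-93564643) lie farther along. S100a1, on the minus strand, and S100a13, on the plus strand, start head to head with 42 bases between their annotated first exons (chr3:90514393-90514434, 54.8% G or C). These bases are shown because they separate the starts of a called member, S100a1 on POD1, and the steadiest one, S100a13, whose values are given below.

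S100a1 to S100a13, plus strand: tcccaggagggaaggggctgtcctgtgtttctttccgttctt

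The calprotectin genes, which moved together, and S100a4, the member higher after hepatectomy over all days, have RefSeq start sites (GRCm38.p6) with the following bases before them. RefSeq promoter entries were matched for 8 of the 9 members, all but S100a10, which was not searched. Capitals mark TATAAA in S100a8 and S100a4, and in S100a9 a match to TTNNGCAA, a C/EBP-type motif, on the opposite strand. For S100a8 only the last 30 bases are given, chr3:90669041-90669070, plus strand. The S100a4 window is chr3:90603520-90603769, plus strand, and the S100a9 window is chr3:90695722-90695971, minus strand.

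S100a8: TATAAAagcagctgacacttagcctcacat

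S100a4: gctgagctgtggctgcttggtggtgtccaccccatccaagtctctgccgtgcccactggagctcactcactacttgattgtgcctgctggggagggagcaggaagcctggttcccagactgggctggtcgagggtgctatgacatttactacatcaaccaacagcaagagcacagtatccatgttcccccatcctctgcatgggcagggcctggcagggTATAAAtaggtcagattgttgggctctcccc

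S100a9: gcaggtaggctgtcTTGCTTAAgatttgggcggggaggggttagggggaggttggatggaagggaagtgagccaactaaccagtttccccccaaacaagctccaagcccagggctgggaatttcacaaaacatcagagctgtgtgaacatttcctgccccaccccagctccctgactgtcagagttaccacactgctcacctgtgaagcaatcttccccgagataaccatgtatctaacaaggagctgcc

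TATAAA ended 25 bases before the RefSeq start of S100a8 and 26 bases before that of S100a4, and it was found on either strand in 12.4% of 32851 RefSeq promoters searched over 250 upstream bases. The S100a9 match lay 229 to 236 bases before its start, and TTNNGCAA was found in 9.56% of those promoters. S100a16 had separate RefSeq starts at chr3:90537254 and chr3:90541146, each with its own window. PU.1-type GAGGAA matches (23.3% of promoters) occurred before S100a8, on the opposite strand, and in the windows of S100a11 and of S100a16 at chr3:90537254, and not in that of S100a9. Of the 8 members searched, S100a9 alone held TTNNGCAA. AP-1-type TGANTCA (6.75% of promoters) was found in the windows of S100a11 and of S100a16 at chr3:90541146. GGGCGG (32.7%) was found in those of S100a9, S100a11 and S100a16 at chr3:90541146. None of these motifs was found in the windows of S100a1, S100a6 or S100a13.

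Levels spanned more than 3 orders of magnitude among the members. Per kilobase of exon, the median over 24 libraries was 17868 CPM for S100a9 and 5245 CPM for S100a8. S100a11 followed at 698 CPM per kilobase and S100a6 at 251, then S100a1 at 97.0, S100a13 at 64.8, S100a10 at 57.1, S100a16 at 39.6 and S100a4 at 3.29. S100a8 and S100a9 together took between 0.287% (sham POD2 replicate 3) and 5.82% (hepatectomy POD1 replicate 3) of all counts in a library. The spread across libraries also differed among members, from an 83.2-fold range for S100a8 to a 5.98-fold range for S100a13 on the scaled CPM scale.

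The plot of all members by library shows the values described next, in CPM of the library size scaled by the trimmed mean of M-values (TMM), called scaled CPM below.

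**Figure D1:**
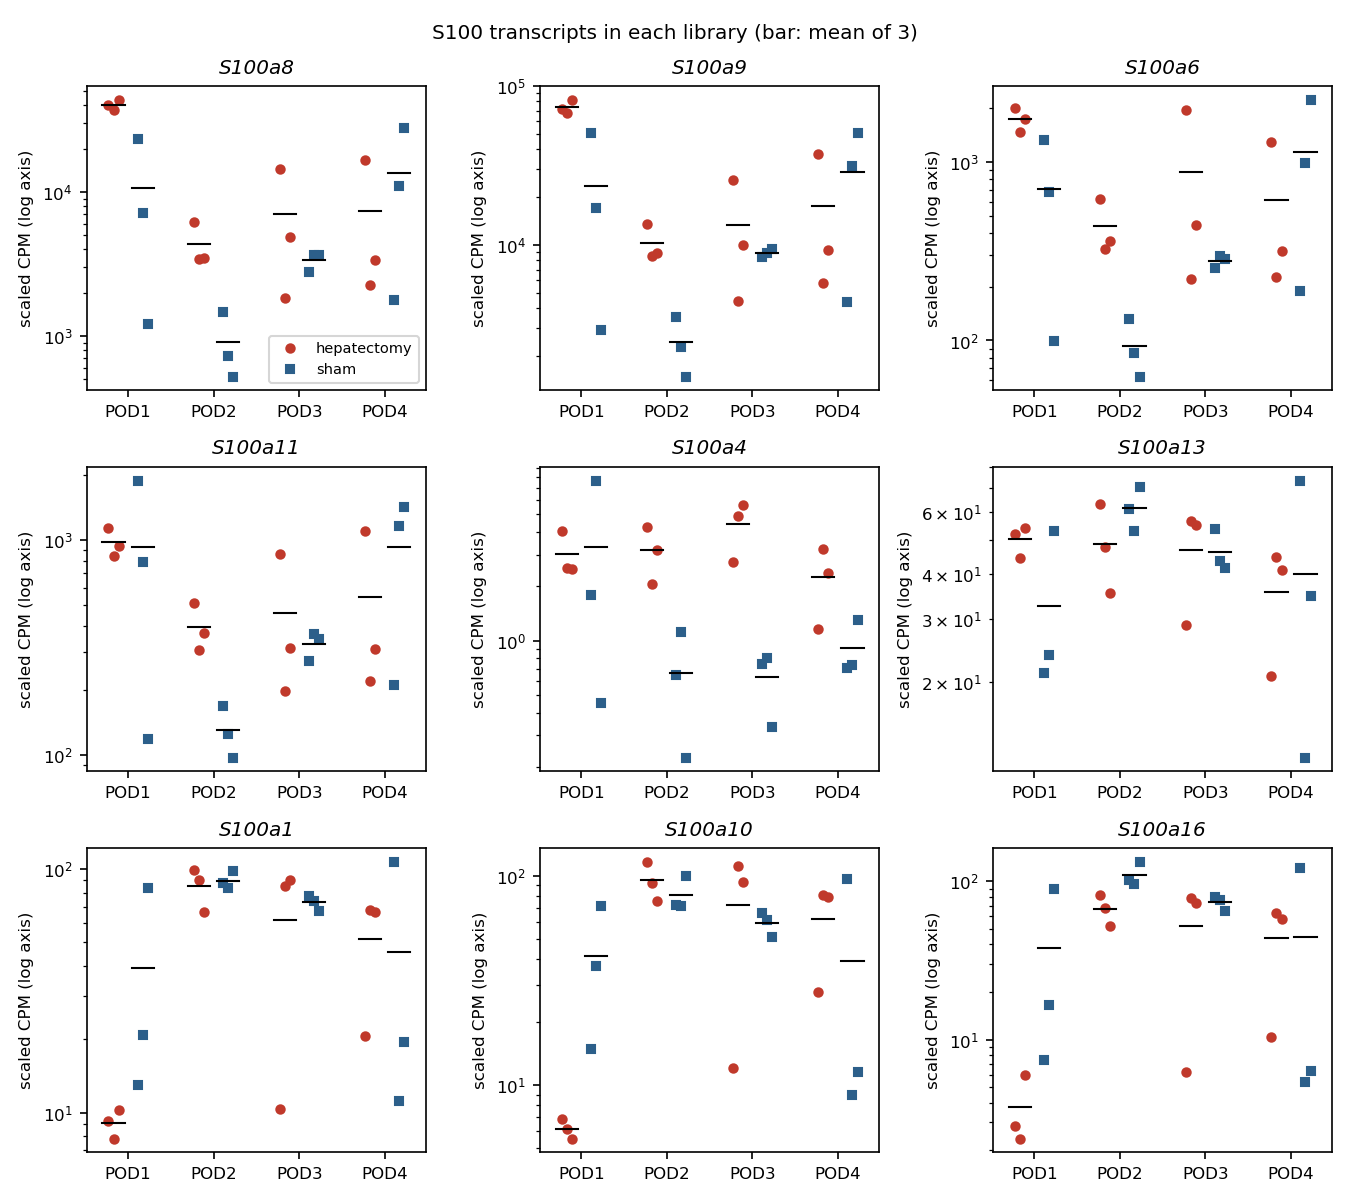
Scaled CPM of each S100 gene (log axes, which differ between panels) in the 3 hepatectomy libraries (red circles, left of each pair) and the 3 sham libraries (blue squares) on POD1 to POD4, with bars at the means. S100a8 lies between 37126 and 43558 in the hepatectomy libraries of POD1, above every sham library of that day.

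S100a8 had 40199, 37126 and 43558 scaled CPM in the hepatectomy libraries of POD1, against 23379.8, 7134 and 1209 scaled CPM in the sham libraries of POD1. S100a9 had 71198, 67301 and 81877 scaled CPM after hepatectomy on POD1, against 50605, 17149.7 and 2921 scaled CPM after sham. The hepatectomy libraries were tight and all above the sham libraries, as 21.3% of all genes were on POD1, while the 3 sham libraries differed among themselves by more than the operations did on average. The differences at POD1 did not pass edgeR's quasi-likelihood test, at log2 1.93 ± 1.06 for S100a8 (SE, Benjamini-Hochberg adjusted p = 0.148) and 1.64 ± 1.03 for S100a9 (adjusted p = 0.203). The day as a whole was one of broad change, with 40.9% of all genes tested called, 13% higher and 28.0% lower after hepatectomy.

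On POD2 both calprotectin genes were at lower levels after hepatectomy than on POD1, and the arms did not overlap. S100a8 had 6177, 3446 and 3474 scaled CPM after hepatectomy, against 1469.9, 725 and 524 scaled CPM after sham. S100a9 had 13486, 8469 and 8872 scaled CPM after hepatectomy, against 3543, 2274 and 1484 scaled CPM after sham. Every hepatectomy library exceeded every sham library for both genes, as was so for 22.9% of all genes on POD2. The log2 differences of 2.27 ± 1.07 and 2.08 ± 1.04 did not pass when all 24 libraries shared 1 estimate of spread (edgeR adjusted p = 0.563 and 0.575).

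On POD3 and POD4 the arms overlapped. S100a8 had 14420.3, 1832 and 4862 scaled CPM after hepatectomy on POD3, against 2767, 3625 and 3655 after sham, and on POD4 it had 16648, 2264 and 3373 after hepatectomy, against 1773, 10992 and 27766 after sham. S100a9 had 25755, 4439 and 9924 scaled CPM after hepatectomy on POD3, against 8399.8, 8907 and 9402 after sham, and on POD4 it had 37609, 5753 and 9252 after hepatectomy, against 4351, 31547 and 50494 after sham. The high libraries of these 2 days are those low in the endothelial score. The log2 differences of S100a8 were 1.07 ± 1.04 on POD3 and -0.86 ± 1.03 on POD4, and those of S100a9 were 0.59 ± 1.01 and -0.72 ± 1.01, none of which passed (lowest adjusted p = 0.914, edgeR). Without the low-endothelial libraries of these days the POD3 and POD4 differences were -9.24e-05 and 0.67 for S100a8, and -0.31 and 0.78 for S100a9. On POD4 that fit kept sham replicate 1 alone, so its POD4 values rest on 1 sham library.

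The neutrophil list moved with calprotectin. Its score, the mean log2(CPM + 1) of 28 genes, ran from 10.6 to 10.96 in hepatectomy POD1 libraries and from 5.64 to 9.83 in sham POD1 libraries, and from 7.05 to 7.72 in hepatectomy POD2 libraries against 4.86 to 6.09 in sham POD2 libraries. The summed level of the list was 163864 to 197393 CPM after hepatectomy and 4706 to 75611 CPM after sham on POD1, and 12683 to 19376 CPM after hepatectomy and 2711 to 5948 CPM after sham on POD2. Of its 28 genes, 5 passed as higher on POD1 and 0 as lower, beside a background of 13% higher, and the median log2 difference of the list was 1.82 on POD1 and 2.10 on POD2, close to those of S100a8. Set directly against that score, S100a8 showed a difference between operations of -0.01 ± 0.06 log2 units over the 4 days (hepatectomy minus sham, SE, exact permutation test within days, two-sided p = 0.902; 12 libraries per operation). By day that S100a8 difference was -0.15, 0.45, -0.34 and -0.00275 log2 units on POD1 to POD4, so days of opposite sign made up its mean. S100a9 stood 0.22 ± 0.10 log2 units lower relative to the score after hepatectomy. The S100a9 difference did not pass (exact permutation adjusted p = 0.182 over 18 such relations).

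The ratio of the calprotectin transcripts does not depend on library scaling and differed slightly between the operations. S100a9 exceeded S100a8 in every library. On POD1 the ratio was 1.77, 1.81 and 1.88 after hepatectomy, against 2.16, 2.404 and 2.41 after sham, with no overlap. On POD2 it was 2.18, 2.46 and 2.55 after hepatectomy, against 2.41, 3.14 and 2.83 after sham, and on POD3 it was 1.79, 2.42 and 2.04 after hepatectomy, against 3.03, 2.46 and 2.57 after sham. POD3 showed no overlap, and POD2 did. On POD4 the ratio was 2.26, 2.54 and 2.74 after hepatectomy, against 2.45, 2.87 and 1.82 after sham, which overlapped. Over the 4 days the mean log2 ratio was 1.12 after hepatectomy and 1.33 after sham, a difference of -0.21 ± 0.07 (SE; exact permutation test within days, two-sided p = 0.0188, unadjusted as the single ratio tested, 12 libraries per operation). The difference was negative on 3 of 4 days (-0.35, -0.21, -0.37 and 0.10), and without sham POD4 replicate 2 it was -0.17 (exact permutation p = 0.0635). The lowest ratios came from libraries with the most neutrophil transcripts, the hepatectomy POD1 libraries and sham POD4 replicate 3 among them, and the part of library makeup in the difference was not tested.

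**Figure D2:**
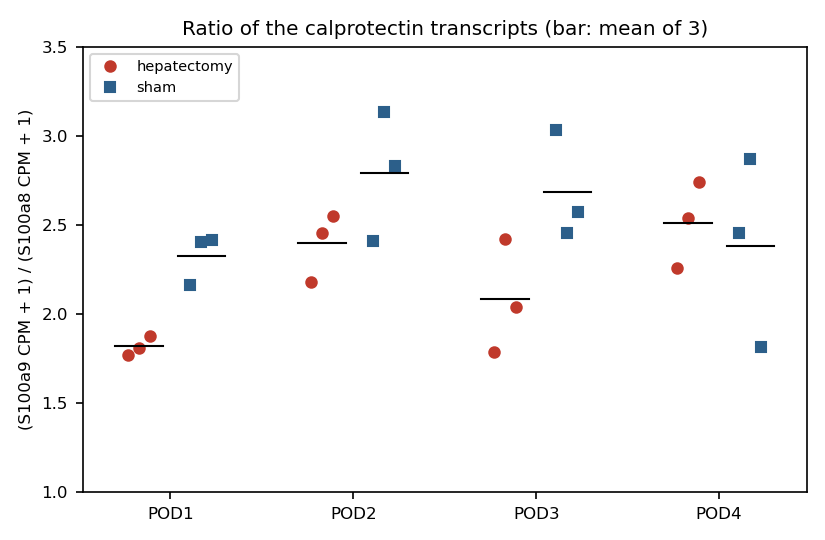
Ratio of S100a9 to S100a8, each as CPM + 1, in the 3 hepatectomy libraries (red circles, left) and the 3 sham libraries (blue squares, right) of each postoperative day, with bars at the means. The POD1 hepatectomy libraries lie between 1.77 and 1.88, below all sham libraries of that day.

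Over the days after hepatectomy, S100a8 changed (edgeR adjusted p = 0.0408 over 4 days), beside 44.8% of all genes tested, while S100a9 did not pass (adjusted p = 0.0624). Leaving out single libraries gave S100a8 adjusted p-values from 0.0146 to 0.110, over 0.05 in 16 of 24 cases. The step lay between POD1 and POD2, where S100a8 fell by 3.21 ± 1.11 and S100a9 fell by 2.84 ± 1.07 on the log2 scale (edgeR adjusted p = 0.0213 and 0.0317), among 21.9% of genes lower in that step. With the endothelial score as covariate the steps were 0.72 for S100a8 and 0.81 for S100a9. From POD2 to POD3 and from POD3 to POD4 no member passed, nor did any gene. After sham, 0 members passed across days in edgeR with all 24 libraries, nor did any of the 14325 genes. DESeq2 called 5 members across sham days beside 10.7% of all genes. Leaving out sham POD4 replicate 1 raised the edgeR count to 7 beside 23.2% of all genes, and leaving out sham POD1 replicate 3 raised it to 5 beside 17.6%.

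S100a6, or calcyclin, binds annexins and the calcyclin-binding protein, and S100a11, or calgizzarin, partners annexin A1 in membrane repair. S100a6 had 2005, 1479.5 and 1735 scaled CPM after hepatectomy on POD1, against 1328, 679 and 99.2 after sham, and on POD2 it had 621, 326 and 359 after hepatectomy, against 131, 85.5 and 62.8 after sham. The arms did not overlap on either day for S100a6. Of all genes, 21.3% on POD1 and 22.9% on POD2 were above sham in every hepatectomy library. S100a11 had 1141, 840.1 and 938 scaled CPM after hepatectomy on POD1, against 1882, 789 and 119 after sham, and on POD2 it had 509, 307 and 371 after hepatectomy, against 169.7, 126 and 97.4 after sham. S100a11 overlapped on POD1 and not on POD2. Neither gene passed the daily edgeR test, with log2 differences on POD1 of 1.31 ± 0.90 for S100a6 and 0.07 ± 0.78 for S100a11, and on POD2 of 2.22 ± 0.92 and 1.60 ± 0.80 (adjusted p = 0.486 and 0.572). The sign for S100a11 on POD1 turned with library size alone (-0.58) and with the endothelial score (-1.54) or the neutrophil score (-1.52) as covariate, and the last 2 fits called it lower (edgeR adjusted p = 0.00470 and 0.000200). Neither score overlaps between the operations on POD1, so those 2 calls rest on fitted slopes, and not on libraries of like score.

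Set against the neutrophil score, S100a11 passed and S100a6 did not, and the difference between these genes was not tested. S100a11 was 0.81 ± 0.17 log2 units lower relative to the neutrophil score after hepatectomy (means of 0.42 after hepatectomy and 1.23 after sham; exact permutation p = 0.00571, adjusted p = 0.0422 over 18 relations), with the same sign on 4 of 4 days (-2.14, -0.31, -0.73 and -0.04). S100a6 showed -0.14 ± 0.09 on that scale (exact permutation p = 0.326), with -0.98 on POD1. The largest daily value for S100a11 was that of POD1, where the hepatectomy libraries had the highest neutrophil scores of their day. The score is subtracted with a slope of 1, while S100a11 had a 19.3-fold range and the log2 score ran from 4.86 to 10.96. A gene that rises less steeply than the score comes out lower wherever the score is higher. The part of slope in the S100a11 difference was not tested. The call was close to the threshold, and leaving out single libraries gave adjusted p-values from 0.000225 to 0.134, over 0.05 in 17 of 24 cases.

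**Figure D3:**
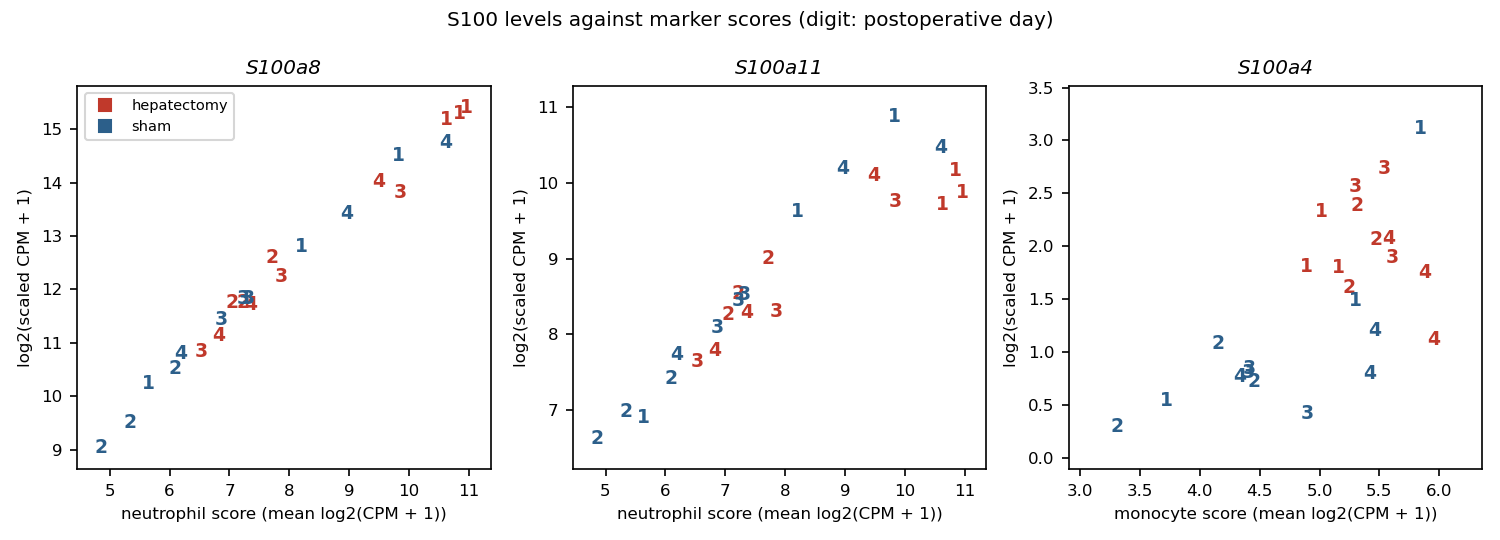
Level of S100a8 (left) and S100a11 (middle) against the neutrophil score and of S100a4 (right) against the monocyte score, as log2(scaled CPM + 1), 1 digit per library giving its postoperative day, in red for hepatectomy and blue for sham. S100a8 follows the score over its whole range, S100a11 lies between 789 and 1882 scaled CPM in the 9 libraries with the highest scores, hepatectomy POD1 (scores 10.6 to 10.96) included, and S100a4 is highest in a sham POD1 library with the highest sham monocyte score, 5.84.

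By contrast S100a1, S100a10 and S100a16 were lower after hepatectomy on POD1, with 3 of 9 members called lower beside 28.0% of all genes. S100a1 regulates calcium cycling in muscle, S100a10 is the p11 subunit that pairs with annexin A2 and does not bind calcium itself, and S100a16 is a widely expressed member. S100a10 had 6.88, 6.14 and 5.55 scaled CPM after hepatectomy on POD1, against 14.8, 37.1 and 72.1 after sham, a log2 difference of -2.74 ± 0.83 (edgeR adjusted p = 0.0147). S100a16 had 2.86, 2.37 and 5.99 scaled CPM after hepatectomy, against 7.41, 16.6 and 89.4 after sham, a log2 difference of -3.34 ± 1.15 (edgeR adjusted p = 0.0275). S100a1 had 9.22, 7.82 and 10.2 scaled CPM after hepatectomy, against 12.9, 20.8 and 83.5 after sham, a log2 difference of -2.11 ± 0.81 (edgeR adjusted p = 0.0452). All 3 genes were lower in every hepatectomy library than in any sham library of POD1, as 28.1% of all genes were, and sham replicate 3 was the highest for each.

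Those calls rested on single libraries. Without sham POD1 replicate 3, no member was called on POD1 by edgeR (13.6% of all genes were then called lower), and the differences were -0.89 for S100a1, -2.07 for S100a10 and -1.69 for S100a16 (adjusted p = 0.421, 0.0850 and 0.267). S100a1 lost its call in 15 of 24 cases when single libraries were left out (adjusted p from 0.0176 to 0.421). Without hepatectomy POD1 replicate 1 or replicate 2 the call remained for S100a10 alone, and without hepatectomy POD1 replicate 3 it remained for S100a16 alone. The endothelial list fell on the same day in 16 of its 19 genes (median log2 -4.96), with summed levels of 1751 to 2028 CPM after hepatectomy and 2190 to 40823 CPM after sham. With the endothelial score as covariate, which called 18.9% of genes higher and 24.5% lower on POD1, S100a1 was at 0.77 (edgeR adjusted p = 0.00438, a call in the other direction), S100a10 at -0.08 (adjusted p = 0.844) and S100a16 at 0.65 (adjusted p = 0.0731). The endothelial scores of POD1 do not overlap, 4.77 to 5.77 after hepatectomy and 6.63 to 10.7 after sham. These values therefore rest on the fitted slope, and not on libraries of like score.

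After hepatectomy the same 3 genes were higher on POD2 than on POD1. S100a10 had 117, 92.3 and 76.3 scaled CPM on POD2 after hepatectomy, S100a1 had 98.6, 90.1 and 66.7, and S100a16 had 81.7, 67.7 and 51.8. The step from POD1 to POD2 was log2 3.94 ± 0.87 for S100a10 (edgeR adjusted p = 0.00169), 3.23 ± 0.85 for S100a1 (adjusted p = 0.00466) and 4.17 ± 1.19 for S100a16 (adjusted p = 0.00753), among 34.5% of genes higher in that step. Endothelial scores of the hepatectomy libraries were 4.77 to 5.77 on POD1 and 10.1 to 10.3 on POD2, and the part of endothelial RNA in these steps was not tested beyond the fits with the score as covariate, in which none of the 3 changed across days (lowest adjusted p = 0.126, edgeR). In sham POD2 libraries S100a16 had 102, 95.7 and 133 scaled CPM, above all hepatectomy libraries of that day, as 21.7% of all genes were. S100a1 (87.1, 83.8 and 97.9 in sham) and S100a10 (72.7, 72.0 and 99.4 in sham) overlapped with hepatectomy on POD2.

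On POD3 and POD4 these genes split by library rather than by operation. S100a16 had 6.26, 78.5 and 72.5 scaled CPM after hepatectomy on POD3, against 79.3, 76.5 and 64.8 after sham, and on POD4 it had 10.4, 63.4 and 57.8 after hepatectomy, against 122, 5.38 and 6.30 after sham. S100a10 had 12.03, 112 and 93.7 scaled CPM after hepatectomy on POD3, against 66.4, 61.4 and 51.0 after sham, and on POD4 it had 27.7, 80.6 and 79.1 after hepatectomy, against 96.7, 8.93 and 11.5 after sham. Relative to the endothelial score, S100a10 was 0.72 ± 0.23 log2 units higher after hepatectomy over the 4 days (means of -3.15 after hepatectomy and -3.87 after sham; exact permutation p = 0.00526, adjusted p = 0.0422 over 18 relations), positive on 3 of 4 days. S100a16 on that scale was at 0.16 ± 0.11 (exact permutation p = 0.328) and S100a1 at 0.53 ± 0.20 (p = 0.0716). The score is subtracted with a slope of 1, while S100a10 had a 21.0-fold range and the log2 score ran from 4.77 to 10.8. A gene that rises less steeply than the score comes out higher wherever the score is lower. The part of slope in the S100a10 difference was not tested. Leaving out single libraries gave adjusted p-values from 0.0201 to 0.134 for S100a10, over 0.05 in 15 of 24 cases.

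Across the split by endothelial score the members formed opposite sets, given here as a description. How many of all genes also split without overlap was not counted, so the pattern is not shown to be particular to these members. S100a8 had a median of 23379.8 scaled CPM in the 9 low-endothelial libraries and 2767 in the other 15, with no overlap, and S100a9 (50494 and 8399.8), S100a6 (1479.5 and 253) and S100a11 (1098 and 272) also showed none. S100a1 had a median of 11.1 scaled CPM in the 9 libraries and 83.8 in the other 15, with no overlap, as had S100a10 (11.5 and 79.1) and S100a16 (6.26 and 78.5). Only S100a13 (28.8 and 53.0) and S100a4 (2.48 and 1.12) overlapped between the sets of libraries.

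S100a13, which helps export FGF1 and interleukin-1 alpha, proteins that lack a signal peptide, was the steadiest member. On POD1 it had 51.9, 44.5 and 53.9 scaled CPM after hepatectomy, against 21.1, 23.7 and 53.0 after sham. On POD2 it had 62.9, 47.9 and 35.4 after hepatectomy, against 61.1, 53.0 and 70.5 after sham. On POD3 it had 28.8, 56.4 and 54.9 after hepatectomy, against 53.6, 43.7 and 41.6 after sham, and on POD4 it had 20.8, 44.8 and 41.1 after hepatectomy, against 73.2, 12.2 and 34.7 after sham. The arms overlapped on every day, and the POD1 difference of 0.62 ± 0.47 log2 units did not pass (edgeR adjusted p = 0.298). The sign of this difference turned with library size alone, and its size and call changed with the covariates. It was -0.58 with library size alone, 1.91 with the endothelial score as covariate (adjusted p = 5.82e-05) and 1.64 with the neutrophil score as covariate (adjusted p = 0.00333), in a comparison whose endothelial scores do not overlap, 4.77 to 5.77 after hepatectomy and 6.63 to 10.7 after sham. Of the head-to-head neighbours shown above, S100a1 was called lower on POD1 and S100a13 was not; the difference between the neighbours was not tested.

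S100a4, a myosin-binding member found in monocytes, macrophages and fibroblasts, was the only member that passed over the mean of the 4 days in edgeR. On POD1 it had 4.02, 2.51 and 2.48 scaled CPM after hepatectomy, against 1.80, 7.66 and 0.456 after sham. On POD2 it had 4.24, 2.05 and 3.19 after hepatectomy, against 0.649, 1.12 and 0.226 after sham. On POD1 sham replicate 2 was above all hepatectomy libraries, and on POD2 the arms did not overlap (22.9% of all genes were above in every hepatectomy library). On POD3 it had 2.72, 4.93 and 5.64 after hepatectomy, against 0.749, 0.800 and 0.335 after sham, again apart (8.03% of all genes were above). On POD4 it had 1.17, 3.22 and 2.36 after hepatectomy, against 0.709, 0.734 and 1.31 after sham, with 1 hepatectomy library inside the sham range. These are low levels, 14 to 107 counts after hepatectomy and 4 to 83 counts after sham.

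Over the mean of the 4 days S100a4 was 1.56 ± 0.36 log2 units higher after hepatectomy, a fold change of 2.94 (edgeR adjusted p = 0.00916), beside 6.04% of all genes called higher and 7.99% lower in that comparison. The other 8 members did not pass (adjusted p from 0.104 for S100a6 to 0.937 for S100a13). By day the S100a4 difference was -0.12 ± 0.71, 2.23 ± 0.74, 2.80 ± 0.75 and 1.31 ± 0.74 log2 units on POD1 to POD4, none of which passed alone in edgeR (adjusted p = 0.905, 0.337, 0.177 and 0.914). DESeq2 called POD3, and whether the difference changed with the day did not pass (edgeR interaction adjusted p = 0.172). Leaving out any 1 of the 24 libraries left a difference of 1.42 to 1.96 with adjusted p from 0.000692 to 0.0197, and the call held with the endothelial score (1.60) or the neutrophil score (1.51) as covariate.

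The scores of monocyte and of cholangiocyte markers were apart between the operations on POD2 and POD3, as S100a4 was. The monocyte score, the mean log2(CPM + 1) of 9 genes, was 5.25 to 5.47 after hepatectomy and 3.31 to 4.45 after sham on POD2, and 5.30 to 5.61 after hepatectomy and 4.41 to 4.90 after sham on POD3, with no overlap on either day. On POD4 it was 5.58 to 5.95 after hepatectomy and 4.33 to 5.46 after sham, and on POD1 it was 4.89 to 5.16 after hepatectomy and 3.73 to 5.84 after sham. The list summed to 1810 to 2370 CPM after hepatectomy and 571 to 1206 CPM after sham on POD2, and to 1211 to 4462 CPM after hepatectomy and 907 to 1402 CPM after sham on POD3. Its sums on POD1 were 10793 to 12317.5 CPM after hepatectomy and 695 to 4966 CPM after sham. On POD4 they were 1978 to 2708 CPM after hepatectomy and 820 to 10643 CPM after sham. The sums of the list thus did not follow S100a4 over all days. Of its 9 genes, 2 were called higher over the mean of the 4 days and 0 lower, beside 6.04% and 7.99% of all genes. On POD1, 2 of the monocyte genes were called higher and 3 lower, beside 13% and 28.0% of all genes. With the monocyte score as covariate, a fit chosen after the values were seen, S100a4 was 0.78 log2 units higher and did not pass (edgeR adjusted p = 0.201).

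The cholangiocyte score, the mean log2(CPM + 1) of 6 genes of the bile duct epithelium, was 1.53 to 1.93 after hepatectomy and 0.86 to 1.12 after sham on POD2, and 1.67 to 2.19 after hepatectomy and 1.21 to 1.37 after sham on POD3, again with no overlap. On POD1 it was 1.93 to 2.33 after hepatectomy and 0.88 to 2.55 after sham, and on POD4 it was 1.48 to 2.24 after hepatectomy and 0.96 to 1.65 after sham. Of the 4 tested genes of that list, which includes Spp1, a gene that macrophages also express, 2 were called higher over the mean and 0 lower. Over the 24 libraries S100a4 correlated at r = 0.690 with the cholangiocyte score and at r = 0.666 with the monocyte score, a description over points that share library and makeup. Neither relation was particular to S100a4. The cholangiocyte score correlated more closely with S100a6 (0.819), S100a11 (0.801), S100a9 (0.791) and S100a8 (0.790). The monocyte score correlated about as closely with S100a6 (0.660) and S100a11 (0.641). S100a1, S100a10, S100a13 and S100a16 correlated negatively with both scores. With the cholangiocyte score as covariate, also chosen after the values were seen, S100a4 was 1.15 log2 units higher (edgeR adjusted p = 0.0347). A further limit is that 302 exon bases of S100a4 (51.7%) are shared with Gm42674, an annotated gene on the same strand for which no counts were used here, so reads could be split or dropped there.

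**Figure D4:**
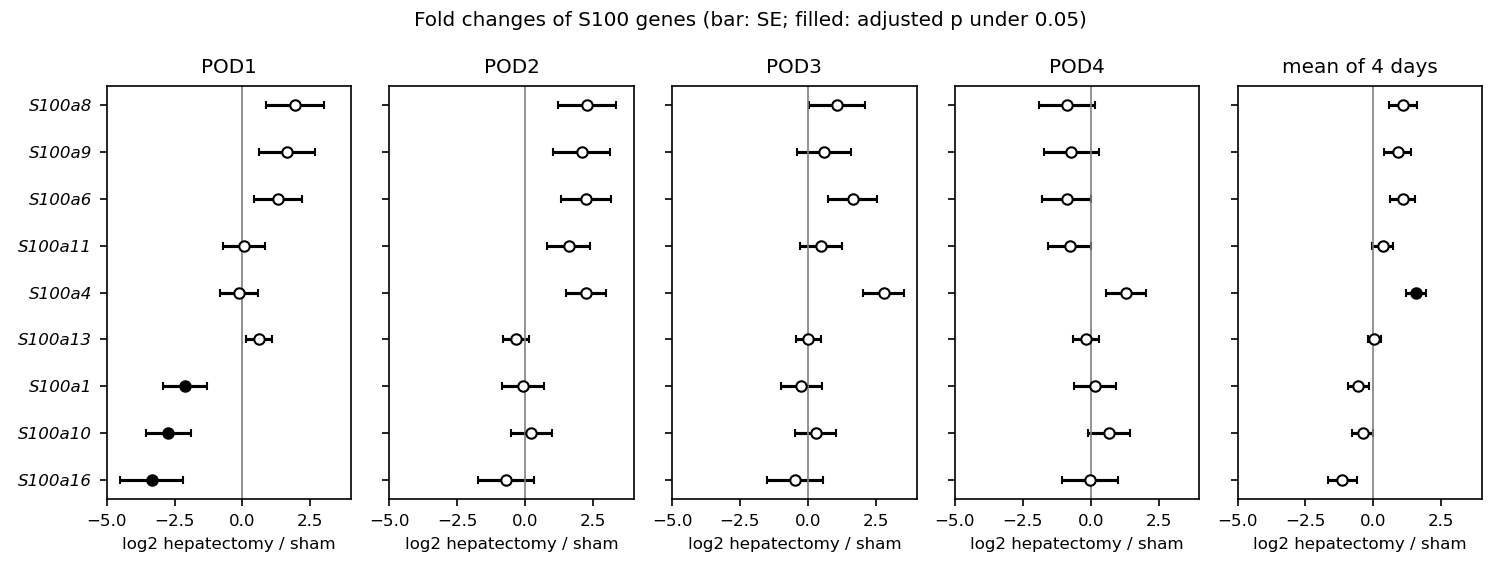
Log2 difference, hepatectomy over sham, of each S100 gene on POD1 to POD4 and over the mean of the 4 days, with SE bars (edgeR, 24 libraries). Filled points passed an adjusted p of 0.05, and these are S100a1, S100a10 and S100a16 on POD1, all lower, and S100a4 over the mean of the 4 days, higher.

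On POD2 the number of members called differed between fits. By edgeR on all 24 libraries 0 of 9 members were called, beside 0.0977% of all genes called (0.0349% higher and 0.0628% lower). DESeq2 also called 0, beside 1.47% of genes. Yet S100a4, S100a6, S100a8, S100a9 and S100a11 were higher in every hepatectomy library than in any sham library, 5 of 9 members against 22.9% of all genes, and S100a16 was lower in every one, against 21.7% of all genes. Fitted on the 6 libraries of POD2 alone, edgeR called the same 5 genes higher and S100a16 lower (adjusted p from 0.00423 to 0.0240), beside 15.9% of genes higher and 13% lower. Voom with quality weights on all libraries called those 5 genes higher beside 19.0% of genes. With the neutrophil score as covariate edgeR called none of the 5 (adjusted p from 0.0846 to 0.803). S100a4 was then at 2.12, S100a6 at 0.54, S100a8 at 0.50, S100a9 at 0.44 and S100a11 at 0.12. S100a16 was at 1.12 in that fit (adjusted p = 0.145). S100a6, S100a8, S100a9 and S100a11 correlated with each other at r of 0.945 to 0.996 over the 24 libraries, so they are not separate observations. All 6 POD2 libraries were high in the endothelial score, 10.1 to 10.3 after hepatectomy and 10.5 to 10.8 after sham, while the neutrophil and monocyte scores were apart, as given above. An exact permutation test on 1 day with 3 libraries per group cannot go below p = 0.10.

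On POD3 and POD4 edgeR called no member on all 24 libraries. On POD3, where 0.0209% of genes were called, no member passed in edgeR. S100a4 alone was above in all libraries (8.03% of genes were) and no member was below (8.96% of genes were). On POD3 DESeq2 called S100a4 (adjusted p = 0.0133) beside 2.06% of genes, voom called 2 members beside 26.4%, and edgeR with the endothelial score as covariate called 2 beside 8.75%. On POD4 no gene was called and all 9 members overlapped (2.69% of genes were above and 2.37% below in all libraries), while voom called 8 members beside 50.6% of genes. The interaction of operation and day called 8.68% of genes and no member, with S100a10 closest (edgeR adjusted p = 0.125). For the interaction DESeq2 called S100a10 beside 23.4% of genes and voom called 9 members beside 72.4%. The median log2 difference of the 9 members was 0.07 on POD1, 1.60 on POD2, 0.48 on POD3 and -0.17 on POD4, beside -0.42, -0.02, 0.01 and -0.02 for all genes tested.

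Proteins that receive extracellular S100 signals were followed by a list of 12 receptor genes. On POD1, 3 were called higher and 1 lower, beside 13% and 28.0% of all genes. Cd69, a leukocyte activation receptor, was at 3.83 ± 0.82 log2 units (edgeR adjusted p = 0.00208). Fpr1, the formyl peptide receptor of neutrophils, was at 3.39 ± 1.05 (adjusted p = 0.0167), and Bsg, the immunoglobulin-family receptor basigin, was at 0.69 ± 0.24 (adjusted p = 0.0263) and at -0.39 with library size alone. Cd36, a scavenger receptor also made by endothelium, was at -3.50 ± 0.84 (adjusted p = 0.00426). None of the list passed in edgeR on POD2, POD3 or POD4, and 3 were called higher over the mean of the days, beside 6.04% of all genes, with a list median of 0.63 beside -0.08 for all genes.

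Intracellular partners were followed by a list of 17 genes, 14 of them tested, of which 2 were called higher and 3 lower on POD1, beside 13% and 28.0% of all genes. Sugt1, a co-chaperone bound by S100a6, was at 1.10 ± 0.15 log2 units (edgeR adjusted p = 6.13e-05) and at 0.115 with library size alone (adjusted p = 0.714). Cacybp, the calcyclin-binding protein, was at -1.53 ± 0.39 (adjusted p = 0.00598), and lost its call with the endothelial score (-0.82, adjusted p = 0.0705) or the neutrophil score (-0.98, adjusted p = 0.0513) as covariate. Il1a, cargo of the S100a13 export route, was at 3.26 ± 0.54 (adjusted p = 0.000284), and Fgf1, its other cargo, was at -4.18 ± 1.22 (adjusted p = 0.0121). Without sham POD1 replicate 3 Fgf1 was at -2.50 and did not pass (adjusted p = 0.128). Over the mean of the days 3 partners were called higher and 0 lower, beside 6.04% and 7.99% of all genes.

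These POD1 values were refitted in edgeR with a score as covariate, first the endothelial and then the neutrophil one. Il1a was at 4.10 and 3.96, and Cd69 at 2.35 and 2.24, all 4 called (adjusted p from 3.84e-06 to 0.00162). Cd36 was at -0.85 and -1.26, called in both fits (adjusted p = 0.0144 and 0.0490). Fpr1 was at 1.43 (adjusted p = 0.0545) and 1.23 (adjusted p = 0.000281), and without sham POD1 replicate 3 it was at 2.86 and did not pass (adjusted p = 0.0637). Fgf1 was at -0.17 and -0.62, and neither fit called it (adjusted p = 0.680 and 0.550). As neither score overlaps between the operations on POD1, these values rest on fitted slopes, and not on libraries of like score.

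Of 8 inflammatory genes induced through TLR4, edgeR on all 24 libraries called 1 higher on POD1, beside 13% of all genes. That gene was Cxcl1 (2.62 ± 0.83, edgeR adjusted p = 0.0179). On POD2, POD3 and POD4 edgeR called 0 of the list, and over the mean of the days it called 4, beside 6.04%. Those 4 were Cxcl1 (2.27 ± 0.41), Cxcl2 (1.79 ± 0.50), Tnf (1.51 ± 0.44) and Tnfaip3 (1.73 ± 0.46), at edgeR adjusted p from 0.00147 to 0.0295. The chemokine genes Cxcl1 and Cxcl2 reached their lowest p on POD3 (2.74 ± 0.83) and POD2 (3.06 ± 1.05), and Tnf on POD2 (2.68 ± 0.93), where none passed (edgeR adjusted p = 0.221, 0.369 and 0.369). DESeq2 called Cxcl1 on POD3 and Cxcl2 on POD2 (adjusted p = 0.0289 and 0.0462), voom and the fit with the endothelial score called all 3 genes on those days, and edgeR on the 6 libraries of POD2 called Cxcl2 and Tnf (adjusted p = 0.00303 and 0.00633). With the neutrophil score as covariate, edgeR called neither Cxcl1 on POD3 (2.17, adjusted p = 0.0581) nor Cxcl2 (1.26, adjusted p = 0.156) or Tnf (1.26, adjusted p = 0.299) on POD2. Tnfaip3, a feedback inhibitor of NF-kB, was at 2.34 ± 0.95 on POD1 (adjusted p = 0.0546), with DESeq2 and voom calling it (adjusted p = 0.0161 and 0.0150). With the endothelial or the neutrophil score as covariate Tnfaip3 was at 0.52 and 0.74 on POD1 and did not pass (edgeR adjusted p = 0.569 and 0.471). The list median was 1.28 over the mean of the days, beside -0.08 for all genes. Other S100-related genes were scarce in these cells, as 9 of 11 listed symbols were in the table and 2 were tested, S100a7a (1.69 ± 0.86 on POD2, adjusted p = 0.576) and the S100P-binding protein gene S100pbp (0.24 ± 0.19 on POD1, adjusted p = 0.312), of which neither passed.

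The genes whose pattern was most like a member's over the 24 libraries are given as a description, by Pearson's r of log2(CPM + 1) among 9258 genes, with the library and its makeup shared by all points. For S100a8 these were Glrx (0.994), Mrgpra2b (0.993) and Tarm1 (0.993), and for S100a9 they were Glrx (0.996), Msra (0.994) and Mrgpra2b (0.991). Glrx encodes a glutaredoxin, Msra a methionine sulfoxide reductase, and Mrgpra2b is on the neutrophil list. S100a6 was most like Prr13 (0.987), Mcemp1 (0.985) and Cd52 (0.984), the last a leukocyte surface glycoprotein. S100a13 was most like Ndufb3 (0.959), a subunit of respiratory complex I, the tubulin cofactor Tbcb (0.944) and the desaturase Degs1 (0.936). For S100a4, added after its values were seen, they were the matrix proteoglycan gene Vcan (0.870), Pdpn (0.867) and Spp1 (0.847), looser than for the other 4 members.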

How the data were processed

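The deposited values are unnormalized read counts of 24 libraries by gene symbol, made by the authors with cutadapt, STAR 2.4.2a on GRCm38 and HTSeq, per the submitters' processing notes; the annotation release and strand setting are not given in the sources used here. All columns matched a library title or description. From these counts edgeR 4.0.16 (R 4.3.3; filterByExpr, TMM, quasi-likelihood F test, 8 groups in 1 fit, 16 residual degrees of freedom, threshold 0.05 on Benjamini-Hochberg adjusted p over 14325 genes) gave all daily, mean, interaction and time tests, after a test on simulated data. DESeq2 1.42.0, limma 3.58.1 voom, other scalings, filters, fits and covariates, and leaving out each library were alternatives. Marker scores and levels relative to them used log2(CPM + 1) on TMM-scaled CPM, with exact permutation of the operation within days (160000 assignments). Promoters came from RefSeq (GRCm38.p6) and exon lengths from GENCODE on GRCm38. Members, lists and tests were chosen with earlier results of these data known. All 9 members were named; genes most like S100a8, S100a9, S100a6 and S100a13 were the 3 highest r at a mean of at least 5 CPM, and list genes up to 4 per list with the lowest daily p. Counts of 4 to 560625 per member and library bound counting error only. The labels give no batch.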

Additional observations from a re-analysis of the deposited data

How the results depend on the processing

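Of the results, the higher S100a4 over the mean of the 4 days held most widely: its difference was 1.38 to 1.78 log2 units and passed under 10 other tests, scalings, filters, covariates and sets of libraries, and ended with the monocyte score as covariate (0.78, 0 members called beside 9.63% of genes). With the cholangiocyte score it was 1.15, and 3 members were called over the mean beside 25.0% of genes. DESeq2 called 1 member on POD3 (2.06% of all genes), 2 over the mean (23.3%), 1 for the interaction (23.4%) and 5 across sham days (10.7%), among the last S100a9 at an adjusted p of 4.41e-129, a value far from every other fit. Voom with quality weights called 7 members on POD1 (55.1% of all genes), 5 on POD2 (32.7%), 2 on POD3 (26.4%), 8 on POD4 (50.6%), 3 over the mean (36.3%), 9 for the interaction (72.4%), 7 across hepatectomy days (83.6%) and 9 across sham days (70.1%), and gave S100a9 on POD3 as -0.0284. The edgeR fit on the 6 libraries of a day called 1 member on POD1 (20.5% of genes) and 6 on POD2 (28.9%). The cause of these differences between tests was not tested.

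The median difference of all genes on POD1 was -0.42 with TMM, -0.32 with median-of-ratios factors and -1.43 with library size alone, under which S100a11 and S100a13 on POD1 were -0.58 and -0.58, Bsg -0.39 and S100pbp -0.73. Median-of-ratios factors put S100a1 on POD1 at an adjusted p of 0.0517.

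With the endothelial score as covariate, 4 members were called on POD2 (7.74% of all genes), 2 on POD3 (8.75%), 4 over the mean (33.9%), 5 for the interaction (33.7%), 2 across hepatectomy days (33.9%) and 3 from POD1 to POD2 after hepatectomy (35.3%). That step was then 0.72 for S100a8, 0.81 for S100a9, -0.29 for S100a1 and -0.55 for S100a16. On POD1 that fit gave -0.0411 for S100pbp, -1.54 for S100a11, 0.0534 for S100a4, -0.62 for S100a6, -0.11 for S100a9, 0.77 for S100a1 and 0.65 for S100a16. It gave S100a8 as -0.28 on POD3 and 0.26 on POD4, and S100a9 as -0.60 and 0.39. With the neutrophil score as covariate, 1 member was called on POD2 (6.28% of all genes), 3 over the mean (31.7%) and 4 for the interaction (23.6%). On POD1 that fit gave -1.52 for S100a11, -0.68 for S100a6, -0.0692 for S100a8, -0.19 for S100a9, 0.27 for S100a1 and 0.25 for S100a16. It gave S100a16 on POD2 as 1.12, S100a8 and S100a9 on POD3 as -0.31 and -0.61, S100a9 over the mean as -0.0922, and the step from POD1 to POD2 after hepatectomy as 0.14 for S100a8 and 0.25 for S100a9. Without the POD3 and POD4 libraries low in the endothelial score, 3 members were called over the mean (32.8% of genes), 2 for the interaction (25.0%), 7 across hepatectomy days (62.9%) and 3 across sham days (10%). The POD3 and POD4 differences were then -9.24e-05 and 0.67 for S100a8, and -0.31 and 0.78 for S100a9, with sham replicate 1 alone left in the sham group of POD4. Neither score overlaps between the operations on POD1, so the POD1 values of both covariate fits rest on fitted slopes. With a pseudocount of 0.25, S100a4 relative to the neutrophil score was 0.18.

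Replicate numbers did not pair the libraries: deviations of same-numbered libraries correlated at -0.86 to 0.19 (3 of 12 pairs over 0.1), and 5 of 24 libraries correlated best with their own number. With the replicate block edgeR called 2 members on POD1 (37.7% of genes), 0 on POD2, POD3 and POD4, 1 over the mean (12.1%), 0 for the interaction, 4 across hepatectomy days (41.4%) and 0 across sham days, and S100a4 on POD1 was 0.16.

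Leaving out each library in turn, the number of members called ran from 0 to 4 on POD1, 1 to 2 over the mean, 0 to 3 for the interaction, 0 to 5 across hepatectomy days, 3 to 6 from POD1 to POD2 after hepatectomy and 0 to 7 across sham days, and was 0 throughout on POD2, POD3 and POD4. The share of all genes called moved too, so these ranges are not particular to the members. Without sham POD1 replicate 3, 13.6% of genes were lower on POD1, against 28.0% with all libraries. Without sham POD4 replicate 1, 23.2% of genes were called across sham days, against 0% with all libraries. Relations to the marker scores that passed ran from 0 to 4. The range was -0.46 to 1.11 for S100a11 on POD1, -0.66 to 1.48 for S100a4 on POD1, -0.00105 to 1.52 for S100a8 on POD3, -2.25 to 0.22 for S100a8 on POD4, and -0.31 to 1.00 for S100a9 on POD3. It was -0.54 to 0.0201 for S100a4 and -0.0427 to 0.0213 for S100a8 relative to the neutrophil score. The calprotectin log2 ratio difference ran from -0.26 to -0.17 (exact permutation p = 0.00095 to 0.0635). Depth limits S100a4 most, at 4 to 107 counts per library; for the other members the spread between libraries exceeds counting error.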
